A study of Mus musculus with 12 samples.

Results

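The circadian clock genes described here are 10 genes, Arntl, Clock, Per1, Per2, Per3, Cry1, Nr1d1, Nr1d2, Dbp and Tef, chosen by gene symbol and all found among the 23996 gene rows of each table. They were measured by RNA-seq in 2 subsets of mouse monocytes, called inflammatory (Ly6Chigh) and patrolling (Ly6Clow) by the labels. All mice were C57Bl/6, a standard inbred strain. The Ly6Chigh naive group received placebo and the Ly6Chigh 16 h group received MDP (muramyl dipeptide, the bacterial peptide fragment sensed by NOD2), and the Ly6Clow naive and 16 h groups were made up likewise. Each of the 4 groups held 3 samples, 12 in all. The sources used here give no age, sex, housing light cycle, pooling of animals or clock time of sampling.

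The clock is a feedback loop of transcription. BMAL1, the product of Arntl, pairs with CLOCK and binds E-boxes in the genes of its own repressors, the PER and CRY proteins, and in those of the nuclear receptors REV-ERB alpha and beta (Nr1d1 and Nr1d2). The REV-ERB proteins in turn silence Arntl through ROR elements, and the output factors DBP and TEF drive a further set of genes through D-boxes. In peripheral tissues of the mouse, Arntl transcripts are high when those of Nr1d1, Nr1d2 and Dbp are low, so these genes are often read together as a marker of the time of day. Mouse Ly6Chigh monocytes are known to carry such a clock, and Per1 is also known as a rapid response gene to cAMP signalling and to glucocorticoids.

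The question asked of these genes was whether the naive and 16 h samples may have differed in time of day. The titles give a time for the MDP samples and none for the naive ones. The authors' values are FPKM, a level scaled for transcript length and for the size of the library, with 1 value per condition and no value per sample. No SD or n of samples can therefore be set beside a value, the depth is unknown, and the error of a difference is carried by the authors' own Cuffdiff q-value alone. The conditions are named q1 and q2 in both tables. The sources used here do not state which of them is placebo, so differences are given as q2 over q1 and the numbering is not known to be the same in both tables. Time of day, MDP and the time since treatment cannot be told apart in this design.

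The promoters of the members that passed the authors' test, and that of Cry1, whose level was higher in q2, are printed to show where their letters match the motifs searched. The sequences are from RefSeq (GRCm38.p6, the assembly of mm10) and run from 250 bases before to 50 bases after an annotated start. Capitals mark letters of 4 of the motifs searched, on either strand: the E-box CACGTG, the E-prime box CACGTT, the ROR element core AGGTCA and the cAMP response element core TGACG.
Per1 promoter 1 (chr11:69098699-69098998, plus strand): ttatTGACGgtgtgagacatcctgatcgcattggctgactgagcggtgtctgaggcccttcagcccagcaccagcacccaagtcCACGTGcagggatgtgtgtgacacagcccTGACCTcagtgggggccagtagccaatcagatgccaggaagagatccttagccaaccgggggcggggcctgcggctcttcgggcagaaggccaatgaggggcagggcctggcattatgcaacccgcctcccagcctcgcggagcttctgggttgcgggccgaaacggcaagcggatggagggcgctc
Per1 promoter 2 (chr11:69099902-69100201, plus strand): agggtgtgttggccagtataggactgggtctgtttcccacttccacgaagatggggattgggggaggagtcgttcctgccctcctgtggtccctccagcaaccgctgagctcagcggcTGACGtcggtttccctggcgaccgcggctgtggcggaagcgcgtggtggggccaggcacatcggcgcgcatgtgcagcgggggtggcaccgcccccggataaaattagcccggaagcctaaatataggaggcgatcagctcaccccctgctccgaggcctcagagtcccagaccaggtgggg
Tef promoter 1 (chr15:81802423-81802722, plus strand): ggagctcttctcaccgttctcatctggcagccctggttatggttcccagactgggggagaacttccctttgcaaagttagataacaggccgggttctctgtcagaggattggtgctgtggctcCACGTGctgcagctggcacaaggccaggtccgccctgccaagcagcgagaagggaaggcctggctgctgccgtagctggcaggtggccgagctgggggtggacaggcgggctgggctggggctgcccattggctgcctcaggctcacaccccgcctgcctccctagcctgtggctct
Tef promoter 2 (chr15:81811164-81811463, plus strand): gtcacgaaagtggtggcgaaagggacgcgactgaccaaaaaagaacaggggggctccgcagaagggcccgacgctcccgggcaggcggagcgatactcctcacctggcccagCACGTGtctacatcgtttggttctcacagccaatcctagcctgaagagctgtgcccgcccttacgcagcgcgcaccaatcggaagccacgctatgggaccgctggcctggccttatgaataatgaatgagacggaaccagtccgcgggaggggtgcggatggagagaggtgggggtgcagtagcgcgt
Nr1d1 promoter (chr11:98775328-98775627, minus strand): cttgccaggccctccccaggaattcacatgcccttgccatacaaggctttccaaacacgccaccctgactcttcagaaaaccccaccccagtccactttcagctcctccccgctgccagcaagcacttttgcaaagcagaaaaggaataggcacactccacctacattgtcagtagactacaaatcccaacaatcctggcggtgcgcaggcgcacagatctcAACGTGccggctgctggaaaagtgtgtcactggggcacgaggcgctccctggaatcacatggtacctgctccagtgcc
Nr1d2 promoter (chr14:18239057-18239356, minus strand): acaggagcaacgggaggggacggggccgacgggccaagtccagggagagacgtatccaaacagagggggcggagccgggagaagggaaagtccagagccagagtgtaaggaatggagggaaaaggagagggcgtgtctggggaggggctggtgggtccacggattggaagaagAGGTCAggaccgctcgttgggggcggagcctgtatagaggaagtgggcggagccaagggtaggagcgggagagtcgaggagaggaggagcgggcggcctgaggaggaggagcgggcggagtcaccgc
Cry1 promoter (chr10:85185005-85185304, minus strand): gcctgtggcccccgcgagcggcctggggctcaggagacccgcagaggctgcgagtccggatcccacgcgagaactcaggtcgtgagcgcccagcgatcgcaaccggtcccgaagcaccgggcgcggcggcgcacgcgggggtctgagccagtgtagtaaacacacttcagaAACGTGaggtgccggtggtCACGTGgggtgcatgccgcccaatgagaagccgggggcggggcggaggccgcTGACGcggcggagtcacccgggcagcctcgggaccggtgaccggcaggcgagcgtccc

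In the sequences above, Per1 held an E-box 166 bases upstream of its 5′ start, with a ROR element core and a cAMP response element core at 137 and 246 bases. Its second promoter held a cAMP response element core 132 bases upstream. Both Tef promoters held an E-box, at 127 and 138 bases upstream. Nr1d1 held an E-prime box 28 bases upstream and Nr1d2 a ROR element core 77 bases upstream. Cry1 held an E-box at 60 bases, an E-prime box at 79 and a cAMP response element core at 8 bases upstream. RefSeq promoters were matched for 9 of the 10 genes, 14 promoters in all, and Per2 was not matched. An E-box stood in 4 of these 14 and in 7.15% of 32851 promoters of the same length. The E-prime box stood in 2 of 14 against 4.68%, the ROR element core in 4 of 14 against 16.3% and the cAMP response element core in 3 of 14 against 20.8%. The D-box, searched as TTANGTAA, stood in 1 of 14, the promoter of Per3, against 2.32%. Promoters of the same gene can overlap and are not separate observations, and none of these motifs overlapped another in the printed sequences. A match of letters is not a bound site, and elements farther away were not searched.

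**Figure D1:**
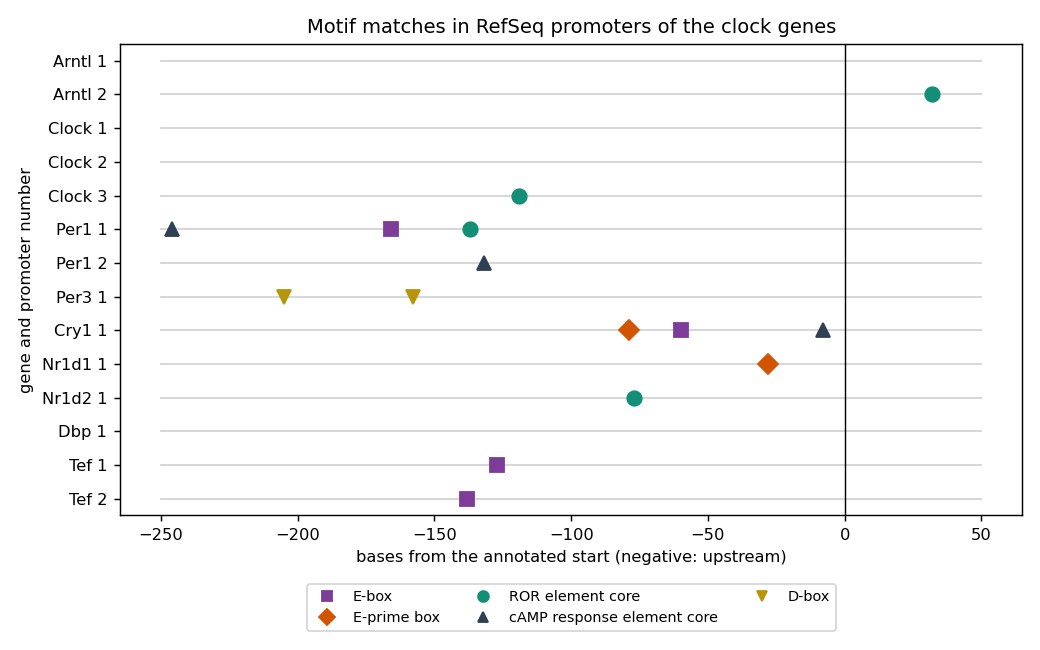
Motif matches in the 14 RefSeq promoters of 9 clock genes, by distance in bases from the annotated start (horizontal axis, negative upstream) and by gene and promoter number (vertical axis); each symbol is the 5′-most base of a match on either strand. E-box matches lie at 60 to 166 bases upstream in Per1, Cry1 and both Tef promoters, and the 2 D-box matches lie in Per3.

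Most of the clock was weakly expressed in these cells. Per1 stood apart, at 19.5 to 47.7 FPKM over both subsets and conditions, while the other 9 genes reached at most 18.3 FPKM. Per1 lay above 75.6% of tested genes in Ly6Chigh cells and above 69.7% in Ly6Clow cells, by the geometric mean of the conditions, among genes of at least 1 FPKM in either condition. Next by this measure came Cry1 in Ly6Chigh cells, above 30.4%, and Tef in Ly6Clow cells, above 49.9%. Per2 and Per3, the other period repressors, were below 1 FPKM in all 4 values. Dbp was below 1 FPKM in 3 of its 4 values, reaching 1.21 FPKM in Ly6Chigh q1 only, and Nr1d1 was below 1 FPKM in q2 of the Ly6Clow table only. The remaining 6 genes, Arntl, Clock, Per1, Cry1, Nr1d2 and Tef, were above 1 FPKM in all 4 values.

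**Figure D2:**
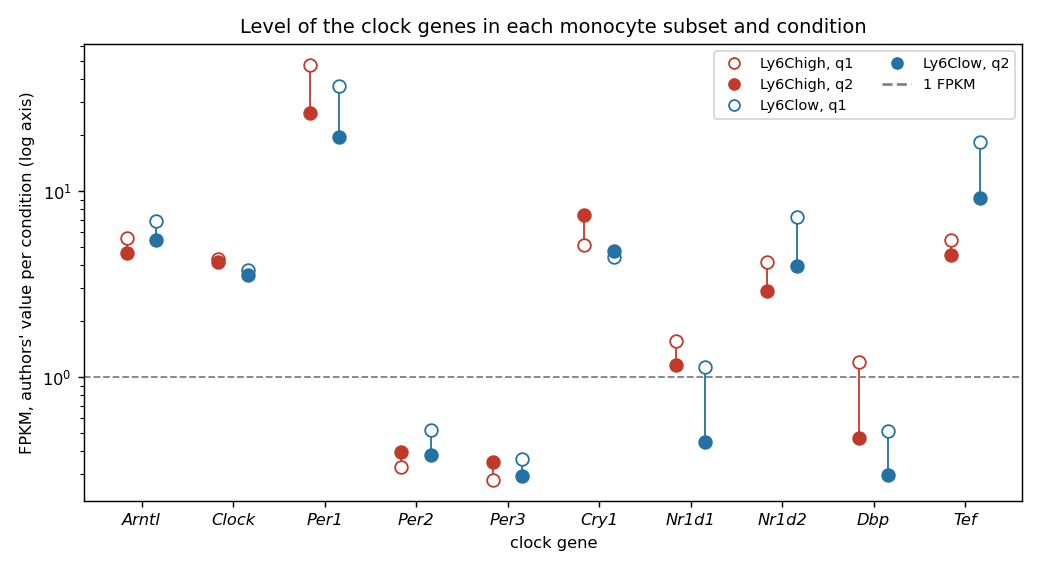
FPKM (log axis) of each clock gene in q1 (open circles) and q2 (filled circles) of the Ly6Chigh table (red) and the Ly6Clow table (blue), 1 authors' value per condition, with a dashed line at 1 FPKM. Per1 lies between 19.5 and 47.7 FPKM, and Per2 and Per3 lie under the line in every condition.

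None of the 10 members was called higher in q2 in either table by the authors' Cuffdiff test. Of all tested genes, 7.07% were called higher in Ly6Chigh monocytes and 14.2% in Ly6Clow monocytes, so with 10 members this absence says little. Cry1 in Ly6Chigh monocytes was the 1 member higher at an unadjusted p under 0.05, where no share of all genes was computed. In Ly6Clow monocytes 4 of 10 tested genes were called lower in q2 in the authors' deposited table (Per1, Nr1d1, Nr1d2 and Tef), where 26.3% of all tested genes were called and 12.2% were called lower. In Ly6Chigh monocytes 1 of 9 tested genes was called lower (Per1), where 14.6% of all tested genes were called and 7.54% lower. The Ly6Chigh share, 11.1% of tested members, is near that of all genes. The Ly6Clow share is 40.0% of tested members, and no test of that share was made. A call is a q-value under 0.05 among genes that the authors tested, and Per3 was not tested in the Ly6Chigh table. Called or not, 7 of the 10 genes had a lower value in q2 in both tables. Of tested genes of at least 1 FPKM in either condition, 48.9% were lower in q2 in Ly6Chigh cells and 50.4% in Ly6Clow cells. The share of all genes lower in both tables was not computed. The 7 include Clock, whose differences were small, and Dbp, which was mostly below 1 FPKM. Neither of them passed in either table.

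Per1, the period gene that is also induced rapidly by cAMP and glucocorticoids, was at 47.7 FPKM (q1) and 26.3 FPKM (q2) in Ly6Chigh cells and at 36.7 (q1) and 19.5 (q2) in Ly6Clow cells. Both q1 values lay above both q2 values, and it was the sole member called in both tables. It was 1.82-fold lower in q2 in Ly6Chigh monocytes, a log2 difference of -0.86 (q = 0.000859 in the authors' deposited table). In Ly6Clow monocytes it was 1.88-fold lower, a log2 difference of -0.91 (q = 0.000418 in the authors' deposited table). The locus of Per1 is chromosome 11, 69098956 to 69109957 of mm10, protein-coding and on the plus strand with no other annotated gene inside it. Among tested genes of at least 1 FPKM in either condition, 5.65% had a lower log2 difference than Per1 in Ly6Chigh cells and 2.70% in Ly6Clow cells. Per2 was at 0.329 and 0.394 FPKM in the Ly6Chigh table (q = 0.784) and at 0.519 and 0.379 in the Ly6Clow table (q = 0.181 in the authors' deposited tables). Per3 was at 0.280 and 0.351 FPKM, untested, and at 0.361 and 0.294 (the authors' deposited table gives q = 0.453). The locus of Per3 lies inside that of Camta1, which is on the same strand. At these levels neither gene shows a direction that is shared by the tables.

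Tef, a D-box binding output factor of the clock, had the widest range of the 10 genes over the 4 values, 4.06-fold, with Dbp next at 4.04-fold. It was at 5.44 FPKM (q1) and 4.52 FPKM (q2) in Ly6Chigh cells and at 18.3 (q1) and 9.21 (q2) in Ly6Clow cells. The order was Ly6Clow q1, Ly6Clow q2, Ly6Chigh q1 and Ly6Chigh q2, so that both Ly6Clow levels lay above both Ly6Chigh levels. The Ly6Clow level was 3.37-fold the Ly6Chigh level in q1 and 2.04-fold in q2, with no test, since the authors may have scaled each table on its own. As q1 is not known to be the same condition in both tables, these ratios may set placebo against MDP. Within the Ly6Clow table Tef was 1.99-fold lower in q2, a log2 difference of -0.99 (q = 0.000418 in the authors' deposited table), and 2.25% of tested genes of at least 1 FPKM had a lower one. In Ly6Chigh monocytes its log2 difference was -0.27 (q = 0.525 in the authors' deposited table). The locus is chromosome 15, 81802673 to 81826863 of mm10, protein-coding and on the plus strand.

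Dbp, the output factor whose daily swing is among the widest in mouse tissues, did not pass in either table and was close to or below 1 FPKM. It was at 1.21 FPKM (q1) and 0.469 FPKM (q2) in Ly6Chigh cells and at 0.511 (q1) and 0.298 (q2) in Ly6Clow cells. Its log2 difference of -1.36 in the Ly6Chigh table did not pass (q = 0.852 in the authors' deposited table). With a pseudocount of 1 it was -0.59, a smaller difference than that of Per1 at -0.84. The deposited test statistic, a score for the difference, was -0.52 there, against -3.20 for Per1. In the Ly6Clow table the log2 difference was -0.77 (q = 0.723 in the authors' deposited table). Dbp's locus in the tables, chromosome 7, 45705247 to 45718002, also overlaps the protein-coding genes Sphk2 and Rpl18. Rpl18, a ribosomal protein gene, was at 1653 and 1354 FPKM in Ly6Chigh cells and 1183 and 1157 FPKM in Ly6Clow cells. Whether reads were shared between these genes was not tested.

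The REV-ERB receptors were lower in q2 in both tables, with calls in Ly6Clow monocytes. Nr1d2 (REV-ERB beta) was at 4.14 FPKM (q1) and 2.89 FPKM (q2) in Ly6Chigh cells and at 7.25 (q1) and 3.97 (q2) in Ly6Clow cells. Its q1 value was the higher one in each table, and its highest value was Ly6Clow q1. In Ly6Clow monocytes it was 1.83-fold lower in q2, a log2 difference of -0.87 (q = 0.000418 in the authors' deposited table). In Ly6Chigh monocytes its log2 difference was -0.52 (q = 0.137 in the authors' deposited table). The locus is chromosome 14, 18204056 to 18239106 (mm10), on the minus strand, with no other annotated gene.

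Nr1d1 (REV-ERB alpha) was at 1.55 and 1.16 FPKM in Ly6Chigh cells and 1.13 and 0.448 FPKM in Ly6Clow cells. These are levels close to 1 FPKM, with Ly6Clow q2 below the others. It was 2.53-fold lower in q2 in Ly6Clow monocytes, a log2 difference of -1.34 (q = 0.000418 in the authors' deposited table). With a pseudocount of 1 the log2 difference was -0.56. In Ly6Chigh monocytes its log2 difference was -0.42 (q = 0.502 in the authors' deposited table). The locus, chromosome 11, 98767932 to 98775377 on the minus strand, overlaps the 3′ end of Thra on the plus strand by 1075 bases. The sources used here do not say whether the counting used strand, so reads of the shared stretch cannot be assigned. Thra, a thyroid hormone receptor gene, was at 3.73 and 2.85 FPKM in the Ly6Clow table, a log2 difference of -0.39 (q = 0.0998 in the authors' deposited table).

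The activators Arntl and Clock did not pass the test in either table. Arntl was at 5.62 FPKM (q1) and 4.64 FPKM (q2) in Ly6Chigh cells and at 6.90 (q1) and 5.44 (q2) in Ly6Clow cells. Its log2 differences were -0.28 (q = 0.547) and -0.34 (q = 0.0553 in the authors' deposited tables). Both had the same sign as the differences of Nr1d1, Nr1d2 and Tef. In the Ly6Chigh table none of these genes passed, and what the shared sign says of time of day was not tested. The locus of Arntl is chromosome 7, 113207465 to 113314126 of mm10, on the plus strand, and holds the antisense gene Gm45355. Clock, the partner of BMAL1, was at 4.31 and 4.18 FPKM in Ly6Chigh cells and 3.78 and 3.56 FPKM in Ly6Clow cells. Its 4 values were within 1.21-fold of each other, the narrowest range of the 10 genes, with log2 differences of -0.05 (q = 0.963) and -0.09 (q = 0.766 in the authors' deposited tables). The locus given for Clock spans 285640 bases and overlaps 3 other protein-coding genes, of which Pdcl2 and Nmu were listed at 0 and Tmem165 was at 41.9 and 46.3 FPKM in Ly6Chigh cells. A member that misses the threshold is not shown to be unaltered, since no interval can be computed from these files.

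Cry1, a cryptochrome that represses BMAL1 and CLOCK and that peaks later than the period genes in mouse liver, was the one member with a higher value in q2 in both tables. It was at 5.14 and 7.47 FPKM in the Ly6Chigh table, a log2 difference of 0.54 (q = 0.132 in the authors' deposited table). In the Ly6Clow table it was at 4.41 and 4.76 FPKM, a log2 difference of 0.11 (q = 0.659 in the authors' deposited table). Both differences fall short of the threshold. The locus is chromosome 10, 85131700 to 85185054 of mm10, on the minus strand, with no other annotated gene.

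**Figure D3:**
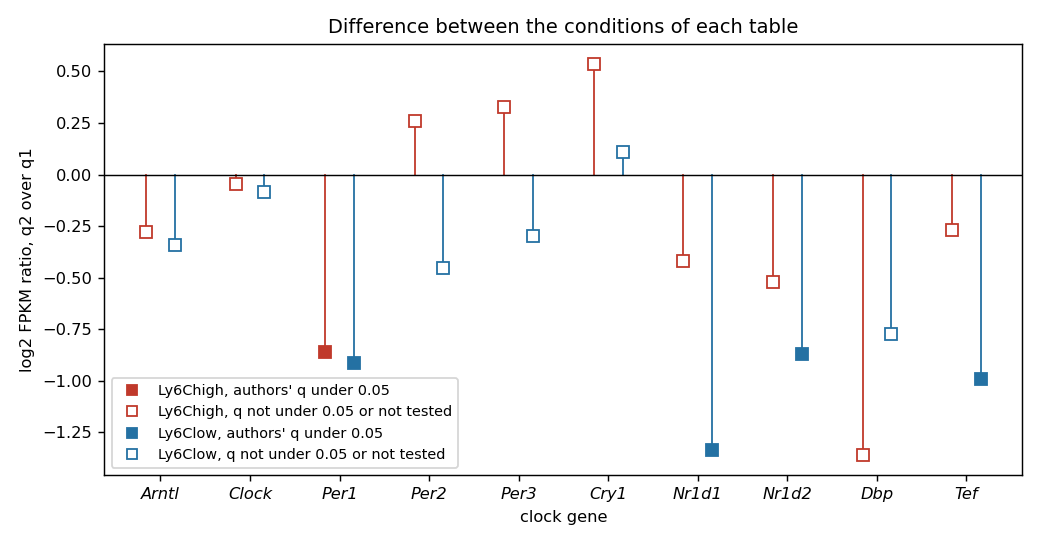
Log2 ratio of FPKM in q2 over q1 (vertical axis) for each clock gene (horizontal axis) in the Ly6Chigh table (red) and the Ly6Clow table (blue); filled squares have an authors' q-value under 0.05 and no error bars can be drawn from 1 value per condition. The filled squares are Per1 in both tables and Nr1d1, Nr1d2 and Tef in the Ly6Clow table, all below 0, and the lowest open square is Dbp in the Ly6Chigh table at -1.36.

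Over all 10 members the median log2 difference, a description, was -0.27 for Ly6Chigh and -0.61 for Ly6Clow monocytes. The median over tested genes of at least 1 FPKM in either condition was near 0 in both, at 0.01 over 10508 genes and -0.003 over 10608 genes. Held to the same level, 8 members gave -0.35 and 7 gave -0.87. Dbp in the Ly6Chigh table and Nr1d1 in the Ly6Clow table passed that filter through q1 alone, the condition where they were higher, so these medians support nothing. With a mean of at least 1 FPKM over q1 and q2, which leaves both out, 7 members gave -0.28 and 6 gave -0.61. Whether the subsets differed in these differences was not tested, since the files hold no value per sample.

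Beyond the members, 25 further clock genes were looked at, of which 10 stayed below 1 FPKM in each table, among them Npas2, Arntl2, Rorb, Hlf, Fbxl21 and Bhlhe41. In Ly6Chigh monocytes 2 of 17 tested were called lower and 1 higher, and in Ly6Clow monocytes 4 of 19 were called lower and 3 higher. These shares, 17.6% and 36.8%, compare with 14.6% and 26.3% of all tested genes. Their median log2 differences at 1 FPKM or more were -0.15 and -0.12.

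Bhlhe40 (DEC1), a repressor that binds E-boxes, was called higher in q2 in both tables. It rose from 13.3 to 78.6 FPKM between q1 and q2 in Ly6Chigh cells, 5.91-fold (q = 0.000859 in the authors' deposited table), and from 115 to 145 FPKM in Ly6Clow cells, 1.25-fold (q = 0.0221 in the authors' deposited table). Its relative Bhlhe41 rose from 0.104 to 0.460 FPKM in the Ly6Clow table (q = 0.000418 in the authors' deposited table), both values under 1 FPKM. Nfil3, which represses through the D-box, was at 120 and 85.2 FPKM in the Ly6Chigh table (q = 0.0662) and at 77.4 and 55.8 in the Ly6Clow table, 1.39-fold lower (q = 0.000418 in the authors' deposited tables). Ccrn4l, which encodes nocturnin, a rhythmic enzyme of the cytoplasm and mitochondria, was at 6.91 and 6.37 FPKM (q = 0.833) and at 17.1 and 8.01, 2.13-fold lower in the Ly6Clow table (q = 0.000418 in the authors' deposited tables). Nfil3, Ccrn4l and Tef were thus called lower in q2 in Ly6Clow monocytes, while their Ly6Chigh differences had the same sign and did not pass. For Nfil3 the Ly6Chigh difference, 1.41-fold, was no smaller than the Ly6Clow one, so a call in 1 table alone does not mark a larger difference. The difference between the subsets was not tested.

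Among the other repressors, Cry2 was at 2.33 and 1.87 FPKM in the Ly6Chigh table (q = 0.551) and at 1.83 and 1.77 in the Ly6Clow table (q = 0.871 in the authors' deposited tables). Ciart, a target and repressor of BMAL1 and CLOCK, was at 6.05 and 3.60 FPKM (q = 0.551) and at 2.13 and 1.57 (q = 0.66 in the authors' deposited tables). Neither passed. Timeless, in mammals chiefly a replication fork protein, was called lower in the Ly6Chigh table, at 4.46 and 2.19 FPKM, and higher in the Ly6Clow table, at 1.68 and 3.07. Arntl2, a paralog of Arntl, was called lower in the Ly6Clow table at 0.543 and 0.277 FPKM (the authors' deposited table gives q = 0.0286).

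Of the enzymes that set the stability of PER proteins, Csnk1e and Fbxw11 passed in 1 table each. Csnk1e, a casein kinase that phosphorylates PER, was called lower in the Ly6Chigh table, at 44.2 and 29.5 FPKM (the authors' deposited table gives q = 0.0248), and was at 37.0 and 31.0 in the Ly6Clow table (q = 0.0683). The other casein kinase gene, Csnk1d, was at 49.0 and 47.9 FPKM and at 56.6 and 55.0 (q = 0.954 and 0.834 in the authors' deposited tables). Fbxw11, a ubiquitin ligase subunit, was 1.25-fold lower in the Ly6Clow table (q = 0.0167 in the authors' deposited table). Its relative Btrc, Gsk3b, Prkaa1, Sirt1 and Nampt did not pass in either table, with log2 differences between -0.34 and 0.18. Rora, an activator of Arntl, was below 1 FPKM throughout and did not pass, and the output genes Wee1 and Usp2 were below 1 FPKM.

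Since Per1 also answers to glucocorticoids and to acute signalling, other genes of those kinds are given beside it. Of 12 glucocorticoid-responsive genes, Per1 included, 4 were called lower and 1 higher in the Ly6Chigh table and 8 lower and 1 higher in the Ly6Clow table. Among all tested genes 7.54% and 12.2% were called lower and 7.07% and 14.2% higher. The glucocorticoid-responsive genes did not share 1 direction. Zbtb16, a zinc finger factor gene, was called lower in both, at 2.79 and 0.349 FPKM in Ly6Chigh cells and 14.2 and 4.93 FPKM in Ly6Clow cells. Dusp1, a phosphatase gene, was also called lower in both, by 2.14-fold and 3.01-fold. Fkbp5, a chaperone gene induced through the glucocorticoid receptor, rose 5.35-fold from q1 to q2 in Ly6Chigh cells and 2.31-fold in Ly6Clow cells in the authors' deposited tables. Of 10 immediate early genes, 4 were called lower and 1 higher in the Ly6Chigh table and 8 lower and 1 higher in the Ly6Clow table. Fos was 3.61-fold and 8.37-fold lower and Egr1 2.99-fold and 4.77-fold lower in the authors' deposited tables. This list did not share 1 direction either. Egr2 was called higher in Ly6Clow cells, at 1.59 and 8.10 FPKM, 5.10-fold (q = 0.000418 in the authors' deposited table). Of 9 temperature-responsive genes, 2 were called higher in Ly6Chigh cells and 3 in Ly6Clow cells, Hsp90aa1 in both, and the rest did not pass. These calls are 22.2% and 33.3% of the list, beside 7.07% and 14.2% of all tested genes called higher and 14.6% and 26.3% called in either direction, and at 9 genes they say little of the list. The cold-induced gene Cirbp, named after its values were seen, was at 36.4 and 26.0 FPKM and at 88.9 and 63.4 (q = 0.932 and 0.915 in the authors' deposited tables). Rbm3, of the same list, had the opposite sign and was called higher in Ly6Chigh cells. It was at 304 and 443 FPKM there (q = 0.0445) and at 241 and 279 in Ly6Clow cells (q = 0.152 in the authors' deposited tables). The part of glucocorticoid, handling or temperature effects in the clock gene differences was not tested.

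**Figure D4:**
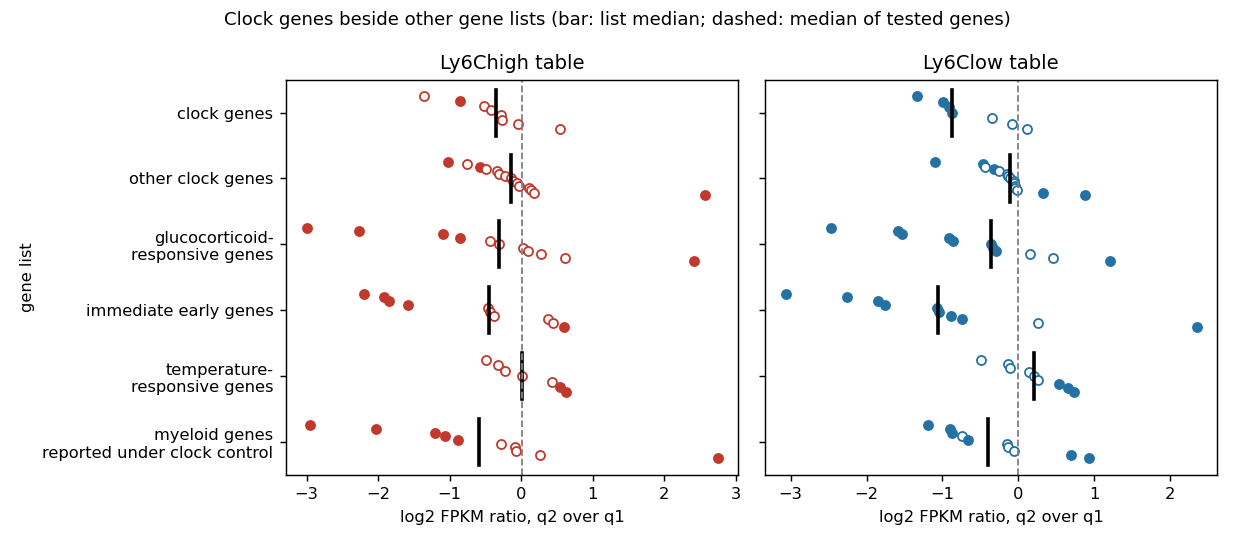
Log2 ratio of FPKM in q2 over q1 (horizontal axis) for genes of at least 1 FPKM in either condition, by gene list (vertical axis), in the Ly6Chigh and Ly6Clow tables; each circle is a gene, filled where the authors' q-value is under 0.05, black bars are list medians and the dashed line is the median of tested genes. The clock genes have medians of -0.35 and -0.87, which include Dbp (Ly6Chigh) and Nr1d1 (Ly6Clow) only through their q1 value, and of -0.28 and -0.61 without them; the other clock genes have medians of -0.15 and -0.12.

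Ly6c2, which encodes the Ly6C antigen, followed the labels, at 1312 and 1054 FPKM in the Ly6Chigh table against 5.78 and 3.98 in the Ly6Clow table. All 9 monocyte markers listed, such as Csf1r and Itgam, were above 1 FPKM in both tables. All 5 B cell markers listed were too, so that level alone does not tell the cell types apart. Some markers of other cells were also called between the conditions. Of all tested genes, 7.54% were called lower and 7.07% higher in Ly6Chigh cells, and 12.2% lower and 14.2% higher in Ly6Clow cells. No marker list was tested against these shares. In the Ly6Clow table, where most clock gene calls lie, 4 of 5 B cell markers were called higher in q2, with a summed level of 158 FPKM (q1) and 231 FPKM (q2) and none at 0. Of 6 tissue macrophage markers there, 5 were called lower, with sums of 234 and 91.0 FPKM, and of 5 dendritic cell markers 2 fell and 1 rose, with sums of 19.8 and 16.0. In Ly6Chigh cells the dendritic cell markers summed to 16.7 FPKM in q1 and to 1.41 in q2, with 2 of 5 called lower, and tissue macrophage markers were called higher in 3 cases and lower in 1. Of the monocyte markers themselves, 4 were called lower and 1 higher in Ly6Chigh cells, and 4 lower and 2 higher in Ly6Clow cells. The summed level of that list was 3636 and 2679 FPKM in Ly6Chigh cells and 4311 and 2874 in Ly6Clow cells. T cell, NK cell and neutrophil markers summed to at most 24.5 FPKM in any condition, with 1 NK marker called lower in Ly6Chigh cells and 1 T cell, 2 NK and 1 neutrophil marker called higher in Ly6Clow cells. The neutrophil markers Ngp and Camp were listed at 0 in at least 1 condition. Erythroid and platelet markers, taken as 1 list, summed to between 506 and 1069 FPKM. The 2 called lower in Ly6Chigh cells were the platelet genes Pf4 and Ppbp. The 2 called higher in Ly6Clow cells were the erythroid genes Hbb-bt and Alas2. The part of these cells in the clock gene differences was not tested, and fewer cells of a type cannot be told apart from less RNA per cell.

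The genes whose differences were most like those of Arntl and Nr1d1 were sought over the 2 tables, by the distance between log2 ratios with a pseudocount of 1, among 10179 genes. Those nearest to Arntl were Adamts6, Clk1, Atf6b, 4732471J01Rik and Siah1a, at distances of 0.0074 to 0.0136. Those nearest to Nr1d1 were Gm16845, Adssl1, Hdac9, Phf1 and Fam107b, at 0.0147 to 0.0252. None of these 10 was on the clock lists. Those lists hold 10 and 25 genes, beside the 10179 compared, so this absence says nothing of the clock. With a pseudocount of 0.1, 0 of the 5 were shared for either gene, so the neighbours depend on that setting. Dbp could not be compared in this way, since it stayed below 1 FPKM in the Ly6Clow table.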

How the data were processed

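Trimmomatic 0.33, TopHat2 2.0.14, Bowtie2 2.2.5, Cufflinks 2.21, Cuffdiff 2.21 and the build mm10 are named, without settings, per the submitters' processing notes. The deposited tables, 1 per subset, give FPKM per condition, a test statistic (a score), a p-value and a q-value per gene, per the file headers; the tie of table to subset rests on the table's name. The deposited column of log2 ratios was not used; log2 of q2 over q1 was computed from the FPKM with Python 3.11.15 and pandas 2.3.3. Calls (q under 0.05, status OK) equalled the authors' flag in all 23996 rows of each table. The smallest deposited p-value, 5e-05, is held by 677 and 1440 genes, which share the lowest q. The plan compared MDP with placebo; since the conditions are unnamed, q2 was compared with q1. Members and lists (other clock, glucocorticoid, immediate early, temperature and myeloid genes, cell markers) were chosen with earlier results of these data known. Named were all members, the other clock genes (some are not reported here) and up to 4 called genes of each further list. The labels do not say whether samples came from separate animals, so the authors' p-values may measure technical spread alone. The adjustment function was tested on simulated data. Locus starts in the tables count from 0 and were raised by 1; overlaps are from GENCODE M21. Ly6g and Hba-a1 were not matched. Alternatives were other thresholds, pseudocounts, scalings and level filters.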

Additional observations from a re-analysis of the deposited data

How the results depend on the processing

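No paired analysis was possible because the files hold 1 value per condition and none per sample; for the same reason no replicate could be left out. With the Cuffdiff p-values adjusted by Bonferroni, 0 calls were left among the members and among the other clock genes in both tables, since the smallest deposited p-value is 5e-05. With an unadjusted p under 0.05 the members called were 3 in Ly6Chigh monocytes (Cry1 higher, Per1 and Nr1d2 lower) and 5 in the Ly6Clow table, and the other clock genes 4 and 9. Asking for at least 2-fold besides q under 0.05 left 0 members in the Ly6Chigh table and 1, Nr1d1, in the Ly6Clow table, and 2 of 7 other clock genes there. At q under 0.01 the member counts were still 1 and 4, and 4 of 7 other clock genes were called in the Ly6Clow table. The share of all tested genes was computed at q under 0.05 alone, so these counts have no such share beside them. Without the 4 members whose locus overlaps another protein-coding gene, an alternative chosen after seeing the data, 1 and 3 members were called. A pseudocount of 1 brought the median log2 difference of the members to -0.24 in Ly6Chigh and -0.56 in Ly6Clow monocytes, and all 10 members gave -0.61 in the latter. Under both pseudocounts and both scalings tried, 0 of 20 member differences changed sign, but 10 of 20 moved by 0.1 or more under a pseudocount of 1 and 3 under 0.1. With a pseudocount of 1, Dbp in the Ly6Chigh table went from -1.36 to -0.59, behind Per1 at -0.84, and Nr1d1 in the Ly6Clow table from -1.34 to -0.56. With members kept by their mean level, chosen after seeing the data, the medians were -0.28 and -0.61.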

Other observations

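Genes that other studies of mouse myeloid cells place under clock control differed in both directions. Of 13 listed, 5 were called lower and 2 higher in the Ly6Chigh table, and 4 lower and 2 higher in the Ly6Clow table. These calls are 58.3% and 54.5% of the tested genes of the list, beside 14.6% and 26.3% of all tested genes, and no test of the share was made. S100a8, a calcium-binding alarmin gene, was at 62.9 FPKM (q1) and 422 FPKM (q2) in Ly6Chigh cells and at 5.03 (q1) and 9.59 (q2) in Ly6Clow cells, higher in both in the authors' deposited tables. Cxcr4, the receptor that holds leukocytes in the bone marrow, was 2.31-fold and 2.28-fold lower, and Cx3cr1, the fractalkine receptor gene, 7.76-fold and 1.87-fold lower in the authors' deposited tables. Ccl8 was listed at 0 in both conditions of the Ly6Chigh table. The part of the clock in these differences was not tested.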
